A study of Mus musculus with 9 samples.

Results

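Solute carriers are membrane proteins that move small molecules across cell and organelle membranes, and their mouse genes carry symbols that begin with Slc and a family number. Many of them couple uptake to the sodium or proton gradient, others exchange one solute for another, and in the lung they serve fluid and phosphate handling in the epithelium and nutrient and metal uptake in macrophages and other cells. The 27 genes described here are those whose symbol starts with Slc and a digit in at least 1 of the authors' 3 deposited comparison tables, with Slc7a5 left out, among 1908 named genes. RefSeq for GRCm38.p6 holds 375 protein-coding genes with such a symbol, so most solute carrier genes are unnamed here. A name required that the authors had listed the gene as changed, by at least 1.5-fold at an adjusted p of 0.05 or less, so a difference in the listing comparison is how a gene came to be a member and is described below without weight as evidence. Of the 27 members 26 were listed for bleomycin against vehicle, 12 higher and 14 lower, 4 for bleomycin plus homoharringtonine against vehicle, and 0 for bleomycin plus homoharringtonine against bleomycin.

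Whole lung RNA of 9 male C57BL/6J mice was measured on Affymetrix arrays, 1 array per mouse and 3 mice per group. At 8 weeks of age the mice received PBS or 2 U/kg bleomycin into the trachea. Bleomycin is a DNA-breaking antibiotic used to produce lung fibrosis in rodents. From day 5 they were injected into the peritoneum 2 times a week for 15 days with vehicle or with 0.545 mg/kg homoharringtonine, an alkaloid from plum yews that inhibits protein synthesis at the ribosome, and the lungs came from mice of 11 weeks. The groups are the vehicle-treated mice, the bleomycin mice, and the mice given bleomycin and then homoharringtonine. None of the groups analysed here received homoharringtonine without bleomycin. Array medians lay between 4.49 and 4.57 on the log2 scale and lower quartiles between 3.21 and 3.24, and 3 arrays per group limit the precision of every value. The surfactant gene Sftpa1 had a log2 signal from 10.18 to 11.41 over the 9 arrays, a defining gene of lung tissue. All values below are log2 signals of a gene's brightest named probe set, each member had 1, and levels are compared between arrays and not between genes.

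With bleomycin, transporters of amino acids, glucose, metals, taurine, thiamine and phosphate were among the genes with higher signals, while transporters of bicarbonate, lactate, small neutral amino acids and choline and the phosphate transporter of type 2 alveolar cells were among those with lower ones. Over the array, limma called 7.78% of all probe sets at an adjusted p under 0.05, 3.37% higher and 4.42% lower. Of the 27 members 23 were called, 11 higher and 12 lower, and the arrays of both groups did not overlap in 26, against 28% of all probe sets, 12 higher (13.9%) and 14 lower (14.1%). All 27 had an unadjusted p under 0.05 (23% of all probe sets). The listing used the same arrays, so nothing is read from these shares. The remaining members were Slc7a2, Slc24a4, Slc26a9 and Slc26a4. The median difference of the members was -0.62, and that of all probe sets 0.015. The lower calls numbered 5 without bleomycin replicate 2, 6 without bleomycin replicate 3, and 5 each without vehicle replicate 2 and without vehicle replicate 3, against 12 with all arrays, while the higher calls numbered from 9 to 11 when any array was left out. Of the 23 calls 14 held under every alternative in which the gene was tested, 9 higher and 5 lower. The other 9 were lost under at least 1, among them Slc2a1, Slc37a2, Slc9a3r2, Slc10a5, Slc16a7, Slc18b1, Slc34a2 and Slc44a3. Close to the listing limits were Slc16a7, with a fold of 1.54 in the authors' deposited table, and Slc2a1, with a fold of 1.55 and an adjusted p of 0.0487 there. Genes just outside the limits are unnamed here.

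**Figure D1:**
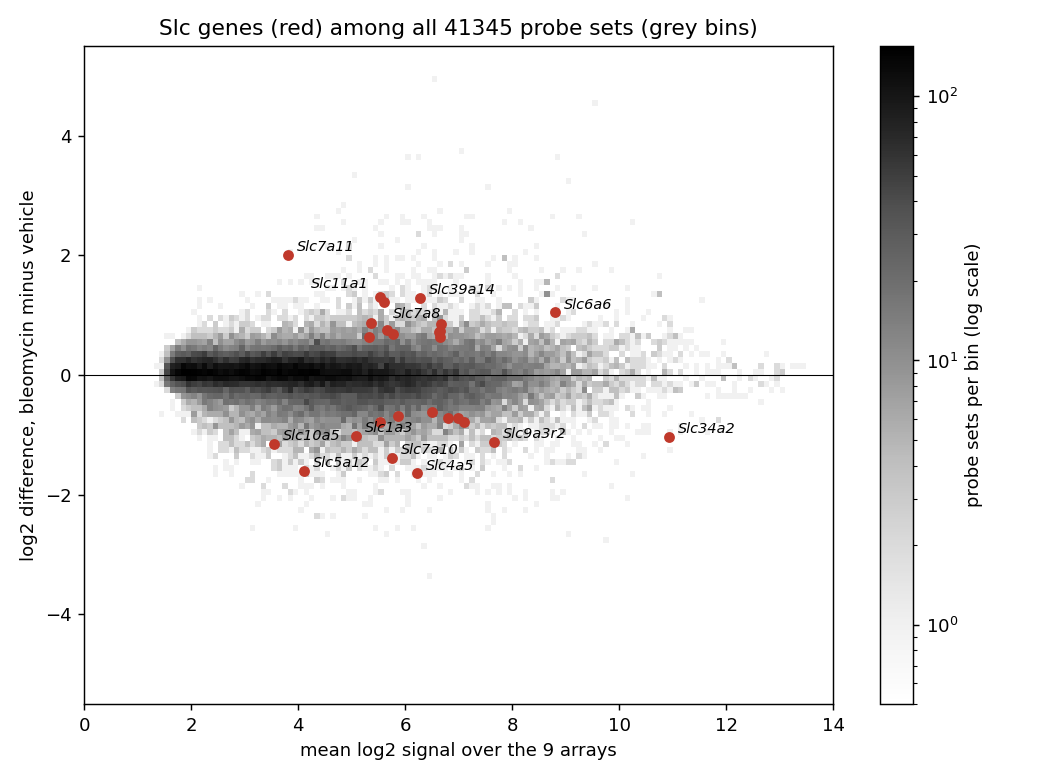
Log2 difference between bleomycin and vehicle (y axis) against the mean log2 signal over the 9 arrays (x axis). Grey squares are bins of all 41345 probe sets, shaded by their number on a log scale, and red points are 26 of the Slc genes, named where the difference exceeds 1 in size. The red points lie away from 0, as the listing required a difference, and Slc7a11, Slc5a12 and Slc10a5 are the members furthest to the left, among the dimmer probe sets.

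Amino acid transporters made up the largest group of members, 8 in all, of which 4 rose with bleomycin, 3 fell and 1, Slc7a2, did not pass the test. Their median log2 difference was 0.70. Slc7a11 is the light chain of the exchanger that imports cystine in return for glutamate and so supplies glutathione synthesis. Its log2 signal was 2.61, 2.95 and 2.94 in the vehicle arrays, 4.57, 5.12 and 4.82 with bleomycin, and 3.72, 3.66 and 3.93 with bleomycin and homoharringtonine. The 3 groups did not overlap, with the homoharringtonine arrays between the other two groups. The difference between bleomycin and vehicle was 2.01 (SE 0.16) in the deposited signals. As the vehicle values were below all 9 lower quartiles, the size of this difference is not firm and no fold is given. The gene (identifier 26570 in the authors' tables) spans positions 50364936 to 50443613 of chromosome 3 there, with no build stated.

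The 250 bases before the annotated start of Slc7a11, from RefSeq (chr3:50443614-50443863, GRCm38.p6, minus strand), are shown because the 3 groups of arrays did not overlap for this gene. That also held for Slc6a6, Slc11a1, Slc26a4 and Slc36a4, and narrowly for Slc5a12, Slc20a2 and Slc38a5, so it does not single out Slc7a11. Capitals mark every match to the C/EBP-ATF response element core TGATGNAA on either strand.
Slc7a11 promoter: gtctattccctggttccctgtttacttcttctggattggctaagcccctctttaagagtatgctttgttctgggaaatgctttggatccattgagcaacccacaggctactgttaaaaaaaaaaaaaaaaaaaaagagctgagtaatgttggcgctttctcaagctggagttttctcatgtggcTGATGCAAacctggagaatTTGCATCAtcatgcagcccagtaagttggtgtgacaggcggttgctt
The window held 2 matches, TGATGCAA beginning 66 bases and TTGCATCA beginning 47 bases before the start. That element is known as a binding sequence of ATF4, the transcription factor of amino acid stress. Of all 32851 promoter windows of this length 3.45% held at least 1 match. Promoter windows were found for 19 of the 27 members, 8 of those listed as higher and 10 of those listed as lower with bleomycin, and Slc7a11 was the sole gene among these 18 with this element. The antioxidant response element core TGACNNNGC was present in Slc7a6 among the higher genes and Slc9a3r2 among the lower ones (10.2% of all windows). The AP-1 site TGANTCA was present in Slc37a2 and Slc9a3r2 (6.75% of all windows), and the E-box CACGTG in Slc24a4 and Slc38a5, both among the lower genes (6.02% of all windows). A match describes these letters and shows no binding.

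Slc7a8, an exchanger of large neutral amino acids, read 4.81, 5.01 and 5.43 in vehicle, 6.04, 6.61 and 6.28 in bleomycin and 5.45, 5.26 and 5.60 in homoharringtonine lungs, a 2.34-fold rise with bleomycin (log2 difference 1.23, SE 0.20). All 3 bleomycin arrays stood above the other 6. In Slc36a4, a transporter of tryptophan and proline, the values were 5.91, 6.35 and 6.52 in vehicle, 7.26, 7.05 and 7.05 in bleomycin and 6.68, 6.60 and 6.63 in homoharringtonine lungs (1.81-fold higher with bleomycin). Here the homoharringtonine arrays lay close together and between both other groups without overlap. Slc7a6, which exchanges cationic for neutral amino acids, read 5.46, 5.52 and 5.57 in vehicle, 6.03, 6.29 and 6.28 in bleomycin and 5.75, 5.44 and 5.59 in homoharringtonine lungs (1.6-fold higher with bleomycin), and its homoharringtonine arrays overlapped the vehicle arrays. For Slc7a2, a carrier of arginine and other cationic amino acids, group means were 6.32 ± 0.26 in vehicle, 7.04 ± 0.40 in bleomycin and 6.56 ± 0.46 in homoharringtonine lungs (SD, n = 3 each), and the vehicle and bleomycin arrays overlapped.

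The 3 amino acid transporters that fell were Slc7a10, Slc1a3 and Slc38a5. Slc7a10, which carries serine, glycine and other small neutral amino acids and is a surface marker of white fat cells, read 6.74, 6.61 and 6.40 in vehicle, 5.05, 5.23 and 5.34 in bleomycin and 5.38, 6.03 and 5.04 in homoharringtonine lungs, a fall of 2.6-fold with bleomycin (log2 difference -1.38, SE 0.23). Homoharringtonine replicate 2 was the highest array outside the vehicle group. Of a list of 10 fat genes 3 were named (Cfd, Cidec and Retn), and their summed linear signal ranged over 135 to 220 in vehicle, 75.2 to 79.1 in bleomycin and 82.8 to 147 in homoharringtonine lungs, with replicate 2 again the highest of the last group. That order is not particular to fat. Homoharringtonine replicate 2 also had the highest sum for club cell, ciliated cell, cardiac muscle and NK and T cell markers, and not for the other cell marker lists. The part of fat tissue in the Slc7a10 values was not tested. In whole lung, fewer cells of a type and less RNA per cell cannot be told apart for any gene described here.

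Slc1a3, a glutamate and aspartate carrier, read 5.41, 5.82 and 5.84 in vehicle, 4.89, 4.39 and 4.75 in bleomycin and 4.85, 4.90 and 4.85 in homoharringtonine lungs (2.02-fold lower with bleomycin). Slc38a5, a glutamine transporter, read 6.04, 6.05 and 5.82 in vehicle, 5.32, 5.10 and 5.16 in bleomycin and 5.53, 5.34 and 5.33 in homoharringtonine lungs (1.72-fold lower with bleomycin). In both genes every array of the treated groups lay below every vehicle array.

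Both sugar transporters rose with bleomycin. Slc2a1, the widespread glucose transporter of the plasma membrane, read 6.47, 6.57 and 6.37 in vehicle, 7.10, 7.11 and 7.09 in bleomycin and 6.16, 6.46 and 6.51 in homoharringtonine lungs (1.55-fold higher with bleomycin, log2 difference 0.63, SE 0.11). The bleomycin arrays agreed closely and stood above all others, while the homoharringtonine and vehicle arrays overlapped. Slc37a2, an exchanger of glucose 6-phosphate for phosphate that macrophages express, read 5.31, 4.78 and 4.90 in vehicle, 5.96, 5.85 and 5.80 in bleomycin and 5.24, 5.07 and 5.39 in homoharringtonine lungs (1.83-fold higher with bleomycin). The call for Slc2a1 was lost without vehicle replicate 3 and without bleomycin replicate 2, and that for Slc37a2 without vehicle replicate 3. The 250 bases before the start of Slc37a2 (chr9:37255739-37255988, GRCm38.p6, minus strand), shown as the one window among the higher genes with an AP-1 site, carry it in capitals.
Slc37a2 promoter: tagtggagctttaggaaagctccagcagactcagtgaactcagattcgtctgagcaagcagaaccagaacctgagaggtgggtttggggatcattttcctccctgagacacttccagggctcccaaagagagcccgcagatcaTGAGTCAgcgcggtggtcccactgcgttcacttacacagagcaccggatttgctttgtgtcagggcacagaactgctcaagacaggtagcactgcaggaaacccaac

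The metal transporters Slc11a1 and Slc39a14 rose as well. Slc11a1 pumps iron and manganese out of the phagosomes of macrophages, and read 4.77, 4.90 and 5.11 in vehicle, 6.13, 6.37 and 6.19 in bleomycin and 5.46, 5.18 and 5.58 in homoharringtonine lungs, a 2.47-fold rise with bleomycin (log2 difference 1.30, SE 0.14). The 3 groups did not overlap. Slc39a14, a zinc, iron and manganese importer of the acute-phase response, read 5.96, 5.77 and 5.61 in vehicle, 6.88, 7.30 and 7.03 in bleomycin and 6.21, 6.14 and 5.64 in homoharringtonine lungs (2.45-fold higher with bleomycin), and here the homoharringtonine arrays overlapped those of vehicle. Macrophage markers moved the same way. Of 15 in the list 14 were named, all 14 were called higher with bleomycin, and their summed linear signal ranged over 1143 to 1209 in vehicle, 5840 to 9054 in bleomycin and 3049 to 4382 in homoharringtonine lungs. Their part in the Slc11a1, Slc37a2 and Slc39a14 values was not tested.

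The other members that rose carry taurine, phosphate and thiamine. The taurine transporter Slc6a6 read 8.26, 8.33 and 8.21 in vehicle, 9.56, 9.36 and 9.04 in bleomycin and 8.95, 8.47 and 8.96 in homoharringtonine lungs (2.07-fold higher with bleomycin). Slc20a2, a sodium-coupled phosphate transporter found in most tissues, read 6.35, 6.38 and 6.25 in vehicle, 7.06, 7.00 and 7.15 in bleomycin and 6.59, 6.40 and 6.67 in homoharringtonine lungs (1.67-fold higher with bleomycin). Both had homoharringtonine arrays between the other groups without overlap. Slc19a2, a thiamine transporter, read 5.15, 5.15 and 5.36 in vehicle, 6.13, 5.76 and 6.05 in bleomycin and 5.78, 5.76 and 5.84 in homoharringtonine lungs (1.69-fold higher with bleomycin), and in this gene both treated groups overlapped above the vehicle arrays.

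**Figure D2:**
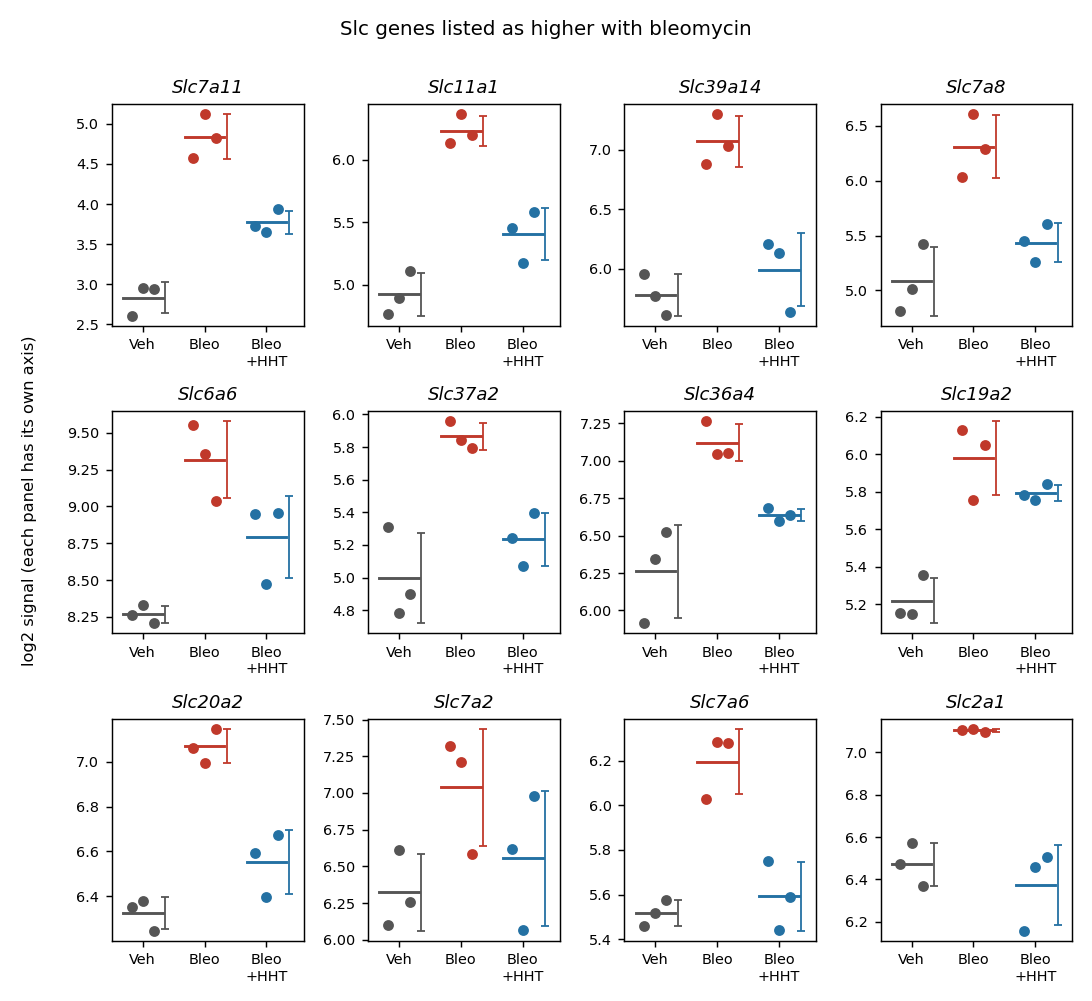
Log2 signal (y axis, one scale per panel) of the 12 Slc genes listed as higher with bleomycin, in vehicle (Veh), bleomycin (Bleo) and bleomycin plus homoharringtonine (Bleo +HHT) lungs. Points are arrays in replicate order, horizontal lines group means and bars 1 SD, with 3 arrays per group. In 10 of the 12 panels every homoharringtonine array lies below every bleomycin array, Slc19a2 and Slc7a2 being the exceptions.

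Of the 4 transporters of bicarbonate and chloride, 2 fell with bleomycin, Slc4a5 among them, and 2 did not pass the test, Slc26a9 and Slc26a4. Slc4a5, an electrogenic cotransporter of sodium and bicarbonate, read 7.00, 7.47 and 7.10 in vehicle, 5.69, 5.45 and 5.49 in bleomycin and 6.06, 6.17 and 5.56 in homoharringtonine lungs, a fall of 3.12-fold with bleomycin (log2 difference -1.64, SE 0.19). Both treated groups lay below all vehicle arrays. Slc26a9, a chloride transporter of the airway epithelium, had means of 7.53 ± 0.03 in vehicle and 6.74 ± 0.42 in bleomycin lungs (SD, n = 3 each) and did not pass the test.

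Slc26a4, known as pendrin (chromosome 12, positions 31519819 to 31559969 in the authors' tables), exchanges chloride for bicarbonate and iodide, and it is the member that the authors listed for homoharringtonine against vehicle alone. It read 4.79, 4.51 and 4.56 in vehicle, 5.23, 4.99 and 5.54 in bleomycin and 6.30, 6.07 and 5.88 in homoharringtonine lungs. No array of any group overlapped another group, and the homoharringtonine arrays were the highest. The listing comparison, homoharringtonine against vehicle, gave a log2 difference of 1.46 (SE 0.17), a 2.75-fold difference. It is the sum of the other 2 differences, 0.63 (SE 0.17) for bleomycin against vehicle and 0.83 (SE 0.17) for homoharringtonine against bleomycin, each of which shares 1 group of arrays with it. All 3 are therefore given as description, and by limma neither of the last 2 was called. For bleomycin against vehicle the limma adjusted p was 0.0549. It fell under 0.05 in 4 alternatives: array weights, both normalizations and the filter on dim probe sets. The call for homoharringtonine against vehicle was lost in 4: the replicate block, and without vehicle replicate 2, vehicle replicate 3 or homoharringtonine replicate 3. The array values of this gene are given in full because of that order, which was seen before the choice was made. Its promoter window (chr12:31559985-31560234, GRCm38.p6, minus strand) is shown for that reason too, and held none of the 4 motifs searched.
Slc26a4 promoter: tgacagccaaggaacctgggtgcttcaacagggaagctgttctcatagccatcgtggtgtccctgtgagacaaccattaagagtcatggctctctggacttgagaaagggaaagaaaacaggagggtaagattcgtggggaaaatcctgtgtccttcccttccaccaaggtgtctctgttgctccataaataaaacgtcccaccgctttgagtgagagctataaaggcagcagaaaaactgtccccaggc

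Both monocarboxylate transporters fell with bleomycin. Slc5a12, a sodium-coupled carrier of lactate and pyruvate, read 4.81, 5.33 and 5.22 in vehicle, 3.47, 3.48 and 3.63 in bleomycin and 3.68, 3.63 and 3.76 in homoharringtonine lungs (log2 difference of bleomycin from vehicle -1.59, SE 0.14). Values of the treated groups lay close together and near the lower quartile of the arrays, so the size of the fall is not firm and no fold is given. Slc16a7, a proton-coupled lactate and pyruvate carrier, fell 1.54-fold, from 6.82 ± 0.14 to 6.19 ± 0.21 (SD, n = 3 each).

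Slc34a2 brings phosphate into type 2 alveolar cells from surfactant and is a marker of these cells. It read 11.45, 11.54 and 11.35 in vehicle, 10.80, 10.13 and 10.31 in bleomycin and 11.47, 10.66 and 10.70 in homoharringtonine lungs (2.05-fold lower with bleomycin, log2 difference -1.03, SE 0.24). Homoharringtonine replicate 1 lay among the vehicle arrays, and among the bleomycin arrays replicate 1 came closest to them. Of 12 genes listed as markers of type 2 cells 8 were named: Abca3, Cd36, Dram1, Etv5, Il33, Lamp3, Lyz1 and Sftpa1. How far these genes are confined to type 2 cells was not tested. Their summed linear signal ranged over 9545 to 9638 in vehicle, 3910 to 5262 in bleomycin and 6444 to 8565 in homoharringtonine lungs, so that both treated groups lay below every vehicle array, and all 8 were called lower with bleomycin. Replicate 1 had the highest sum in each treated group. In the homoharringtonine group this also held for the sums of type 1 epithelium, vascular endothelium and neutrophil markers. In the bleomycin group it also held for club cell, ciliated cell, cardiac muscle and NK and T cell markers. It did not hold for the other cell marker lists. The neutrophil sum was mostly Lcn2, at 9.45, 8.70 and 9.30 in homoharringtonine replicates 1, 2 and 3. In that group Lcn2 and Il1r2 were highest in replicate 1, but Mmp8, Retnlg, S100a8 and S100a9 in replicate 3. The part of type 2 cell number in the Slc34a2 values was not tested. The call for Slc34a2 was lost without vehicle replicate 1, 2 or 3 and without bleomycin replicate 2 or 3.

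The remaining lower members have other substrates. Slc9a3r2, named with the solute carriers, encodes no transporter but a scaffold protein that anchors ion transporters at the membrane. It read 8.33, 8.38 and 8.15 in vehicle, 7.25, 6.88 and 7.39 in bleomycin and 7.96, 7.38 and 7.16 in homoharringtonine lungs (2.17-fold lower with bleomycin). Slc24a4, an exchanger of sodium for calcium and potassium, read 7.30, 7.49 and 7.47 in vehicle, 6.84, 6.48 and 6.81 in bleomycin and 7.43, 6.68 and 6.34 in homoharringtonine lungs and did not pass the test for bleomycin against vehicle. In both genes homoharringtonine replicate 1 stood well above replicates 2 and 3, as it did for Slc26a9 and Slc34a2. Slc44a3, of the choline transporter family, read 7.05, 7.33 and 7.13 in vehicle, 6.76, 6.19 and 6.39 in bleomycin and 6.90, 6.79 and 6.70 in homoharringtonine lungs (1.65-fold lower with bleomycin). Slc18b1, which loads polyamines into vesicles, read 6.04, 6.34 and 6.33 in vehicle, 5.87, 5.29 and 5.51 in bleomycin and 5.83, 5.66 and 5.94 in homoharringtonine lungs (1.6-fold lower with bleomycin). Both had bleomycin replicate 1 nearest to vehicle. Slc10a5, of the bile acid transporter family, read 3.51, 4.45 and 4.25 in vehicle, 3.17, 2.88 and 2.70 in bleomycin and 3.50, 3.56 and 3.87 in homoharringtonine lungs. All its bleomycin arrays lay below the lower quartiles of the arrays, so no fold is given.

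**Figure D3:**
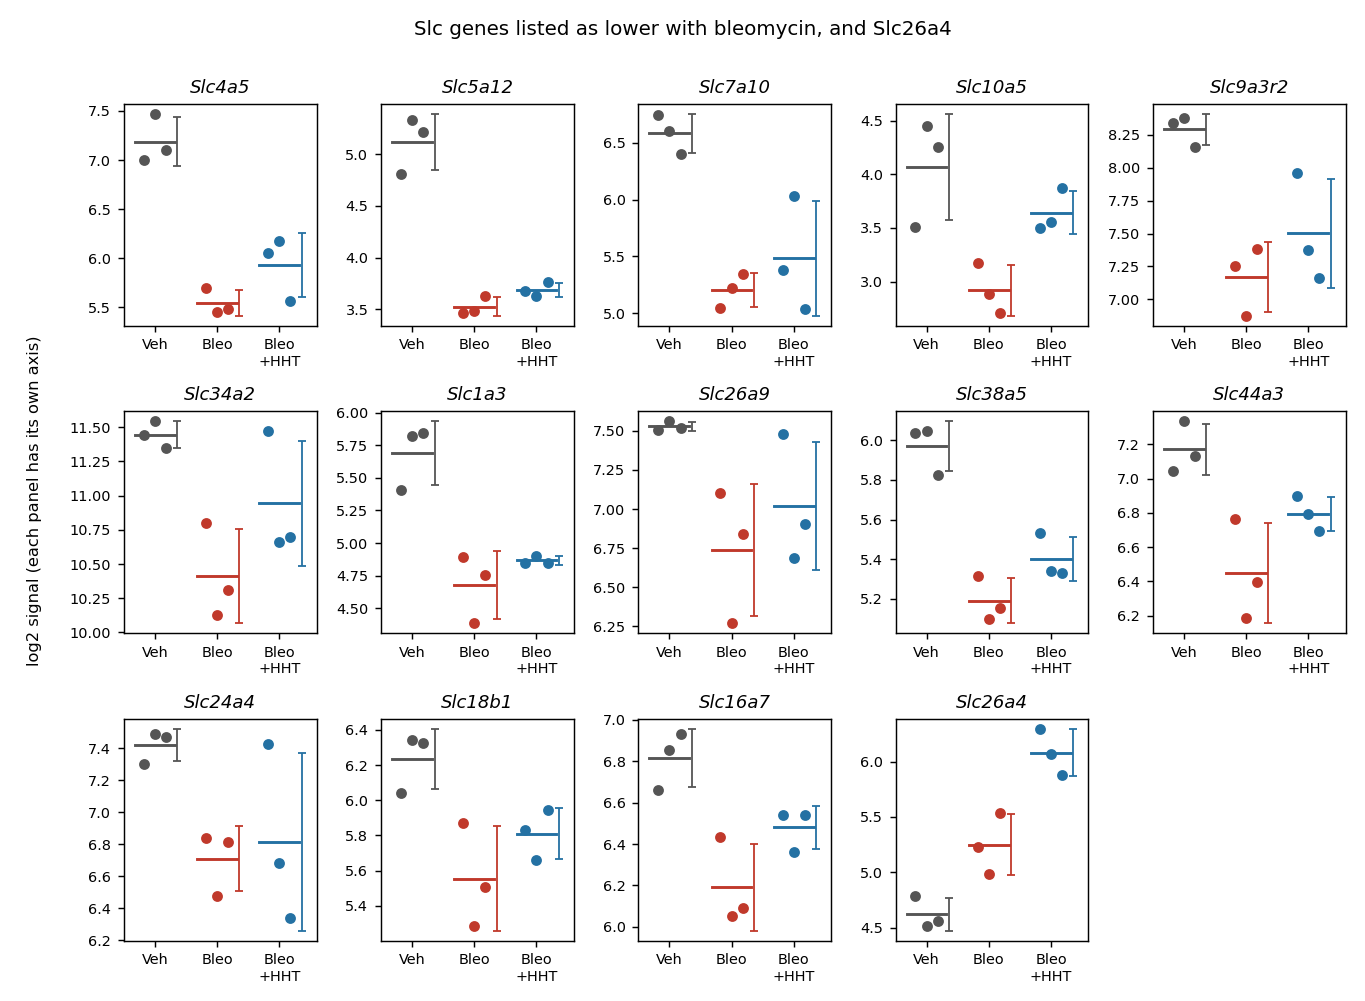
Log2 signal (y axis, one scale per panel) of 13 Slc genes listed as lower with bleomycin and of Slc26a4, in vehicle (Veh), bleomycin (Bleo) and bleomycin plus homoharringtonine (Bleo +HHT) lungs. Points are arrays in replicate order, horizontal lines group means and bars 1 SD, with 3 arrays per group. Bleomycin replicate 1 is the bleomycin array nearest to vehicle in Slc34a2, Slc44a3, Slc18b1 and Slc16a7 among others, and Slc26a4 is highest with homoharringtonine.

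Homoharringtonine against bleomycin compares the injured lung with and without the drug. It is the comparison in which no member was listed, but it shares the bleomycin arrays with the comparison that listed 26 of them, so that a value opposite in sign to the bleomycin difference is partly given by the choice of genes. By limma 0 of the 27 members were called, against 0.0943% of all probe sets (0.0387% higher and 0.0556% lower), and 12 had an unadjusted p under 0.05 (11.1% of all probe sets), 10 lower and 2 higher. Arrays of both groups did not overlap in 14 members (14% of all probe sets), 10 lower (7.79%) and 4 higher (6.19%). A filter on dim probe sets called 4 of the 24 members it kept, all lower, which were Slc2a1, Slc7a6, Slc11a1 and Slc39a14, beside 1.16% of the 20672 probe sets it kept (0.701% lower). Without bleomycin replicate 1, Slc7a11 was called.

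The lowest adjusted p values by limma were those of Slc2a1 and Slc7a11, 0.0682 each. Slc2a1 was 1.65-fold lower than with bleomycin alone, with a log2 difference of -0.73 (95% interval -0.99 to -0.47), and Slc7a11 differed by -1.07 (95% interval -1.44 to -0.70). For Slc39a14 the log2 difference was -1.08 (limma adjusted p 0.0792), for Slc11a1 -0.83 (limma adjusted p 0.0803) and for Slc7a6 -0.61 (limma adjusted p 0.102). In each of these 5 genes every homoharringtonine array lay below every bleomycin array. All 12 genes listed as higher with bleomycin had a lower mean with homoharringtonine and all 14 listed as lower had a higher one. Arrays of both groups did not overlap in 10 of the 12, beside 49.9% of all 907 probe sets on the authors' higher list, and in 3 of the 14 (Slc5a12, Slc10a5 and Slc38a5), beside 44.5% of the 1167 probe sets on the lower list. The margin was small in Slc5a12, with 3.6274 for the highest bleomycin and 3.6295 for the lowest homoharringtonine array. It was also small in Slc38a5, with 5.317 and 5.329. Median log2 differences were -0.62 for the 12 genes and -0.47 for the 907 probe sets, and 0.28 for the 14 genes and 0.41 for the 1167 probe sets. Whether the Slc genes differ from the other listed probe sets was not tested.

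Homoharringtonine against vehicle asked what remained different from the control lung, and it shares the vehicle arrays with the listing comparison. Limma called 3 members, Slc26a4 higher and Slc4a5 and Slc5a12 lower, against 0.506% of all probe sets (0.193% higher and 0.312% lower), and all 3 are among the 4 that the authors listed here, so nothing is read from the count. The other listed gene, Slc7a10, was 2.14-fold lower in the authors' deposited table and had a limma adjusted p of 0.0804. An unadjusted p under 0.05 was found for 17 members (16% of all probe sets). Arrays did not overlap in 18 (21.1%), 7 higher (9.46%) and 11 lower (11.7%). As the shared vehicle arrays took part in the choice of members, nothing is read from these shares either. Without homoharringtonine replicate 3, vehicle replicate 2 or vehicle replicate 3 the count of limma calls fell to 0. It was 2 when vehicle replicate 1, bleomycin replicate 2, bleomycin replicate 3 or homoharringtonine replicate 1 was left out. Among members not listed here, Slc7a11 stood at a log2 difference of 0.94 (SE 0.16, limma adjusted p 0.0532, with dim vehicle arrays), Slc1a3 at -0.82 (limma adjusted p 0.0708), Slc38a5 at -0.57 (limma adjusted p 0.0706) and Slc19a2 at 0.57 (limma adjusted p 0.0803). Near 0 were Slc7a6, at 0.08 (95% interval -0.19 to 0.34), and Slc2a1, at -0.10 (95% interval -0.35 to 0.16).

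For 11 of the 12 genes listed as higher with bleomycin, and for all 14 listed as lower, the homoharringtonine mean lay between the other 2 means, Slc2a1 being the exception. Homoharringtonine arrays stood above all vehicle arrays in 6 of the 12 (63.1% of the 907 probe sets) and below them in 11 of the 14 (75.4% of the 1167 probe sets). The median log2 difference from vehicle was 0.30 for the 12 genes, beside 0.51 for the 907 probe sets, and -0.54 for the 14 genes, beside -0.55 for the 1167 probe sets. With bleomycin alone, the comparison that chose them, these medians were 0.87 and 0.94, and -0.90 and -0.95. Replicates differed in where they stood. Among the 12 genes homoharringtonine replicate 2 was the array of its group nearest to vehicle in 10, and among the 14 genes replicate 1 was nearest in 8.

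**Figure D4:**
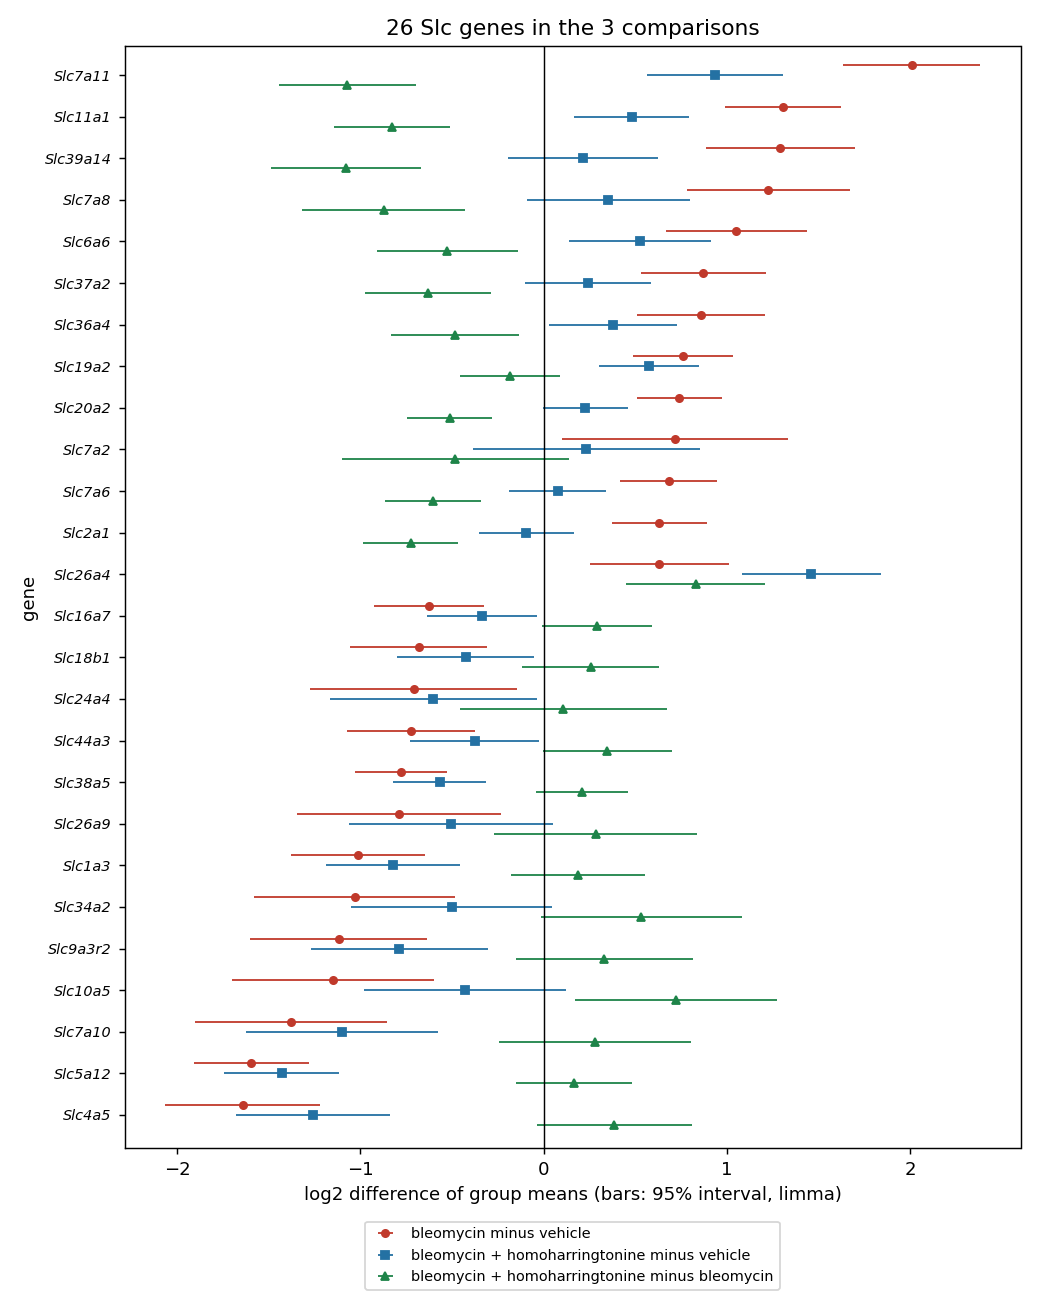
Log2 differences of group means (x axis) of 26 Slc genes (y axis, ordered by the bleomycin difference), for bleomycin minus vehicle (red circles), bleomycin plus homoharringtonine minus vehicle (blue squares) and bleomycin plus homoharringtonine minus bleomycin (green triangles), with 95% intervals from limma. The green values oppose the red ones in every gene drawn but Slc26a4, in which all 3 are above 0, and green and red share the bleomycin arrays.

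Other transport genes, from lists drawn up beside the Slc genes, held both directions too. Of 19 genes that set up ion gradients or move ions and water, 5 were named. With bleomycin, 2 of them fell and 2 rose. The chloride channel Cftr fell 2.88-fold, while the epithelial sodium channel subunit Scnn1a rose 1.83-fold and the pump regulator Fxyd5 1.73-fold, and the water channel Aqp1 had a log2 difference of -0.72 without passing (limma adjusted p 0.0671). The median of these 5 was -0.72. Cftr was also called lower with homoharringtonine against vehicle (1.87-fold, limma adjusted p 0.0283). Of 8 organic anion transporters named Slco, Slco4c1 was named, and it fell 3.99-fold with bleomycin. Among 5 named ABC transporters, which use ATP, the efflux pumps Abcb1b and Abcg2 rose 2-fold and 1.72-fold and Abca3, Abca8a and Abcg3 fell (median of the 5, -0.92). None of these 11 genes was called for homoharringtonine against bleomycin by limma. The median log2 difference there was 0.11 for the ion and water genes and 0.44 for the ABC transporters, and Slco4c1 stood at 0.92.

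Markers of other lung cells moved with these genes. With bleomycin, 13 of 15 named markers of vascular endothelium were called lower, with a summed linear signal of 9483 to 9706 in vehicle, 3716 to 4628 in bleomycin and 4969 to 6952 in homoharringtonine lungs. Lower calls numbered 3 of 4 for type 1 epithelium, 4 of 5 for club cells, 5 of 6 for ciliated cells, 5 of 6 for B and plasma cells, 3 of 3 for NK and T cells, 1 of 3 for fat and 2 of 4 for cardiac muscle. Of 6 neutrophil markers 3 were called higher, and of 11 markers of fibroblasts and myofibroblasts 7 were called higher and 4 lower. No erythroid marker of 12 was named. As names required listing, these counts carry the same limit as those of the Slc genes, and the part of cell numbers in the Slc values was not tested. By the authors' annotation the cellular component term plasma membrane is carried by 23 of the 27 members and by 22.6% of the named genes. An apical term is carried by 7 members (2.88% of the named genes), a basolateral one by 5 (0.996%) and a lysosomal one by 1, Slc11a1 (2.78%). No member belongs to the family of mitochondrial inner membrane carriers.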

How the data were processed

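Per the labels, biotin-labelled cDNA from total lung RNA of 9 mice was put on Affymetrix arrays. The submitters' processing notes name Affymetrix Power Tools and R 3.5.1. The authors deposited log2 signals of 41345 probe sets. Neither their normalization nor the genome build was stated in the labels or headers read here. The authors' deposited tables hold, per the file headers, a signed fold (a score here) and an adjusted p-value from a local pooled error test. Of 14904 listed signals 0 differed from the value table by over 1e-06. By the authors' coordinates all 27 members overlap their RefSeq gene of GRCm38.p6, 8 with the same start and end.

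Limma 3.58.1 in R 4.3.3 was fitted to all 41345 probe sets and 9 arrays (group means, eBayes, 2-sided, Benjamini-Hochberg, threshold 0.05, 6 residual degrees of freedom), and SE and intervals are from this fit. On simulated data with 200 of 41345 probe sets changed for bleomycin against vehicle, the calls recovered 0% of log2 changes of 0.5, 55% of changes of 1 and 88% of changes of 2. The measured data had 3218 calls in that comparison, which loosens the cutoff on p. These shares therefore do not give the recovery in the measured data. Members, substrate groups and lists were chosen with earlier results of these data known. Every member may be named, but 1 member and 1 gene of the other transport lists are not reported here by name, though counts and medians include them. Array values are given for the 10 largest rises and falls called with bleomycin, the 5 smallest p for homoharringtonine against bleomycin, the leader of each substrate group, and Slc26a4. Alternatives were 2-group fits, another prior, array weights, 2 normalizations, a filter on dim probe sets, averaged probe sets, a replicate block and each array left out. Nothing says that mice of a group were separate litters or cages. The p-values weigh a difference of group means against the spread of these 9 mice within their groups.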

Additional observations from a re-analysis of the deposited data

How the results depend on the processing

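For bleomycin against vehicle no member changed sign under any of the 17 alternatives. The higher calls among the Slc genes numbered 9 to 11 when 1 array was left out, against 11, and the lower calls 5 to 12, against 12. With array weights, quantile normalization or median centring the higher calls numbered 12. The lower calls numbered 8 in 2-group fits, 10 with median centring, 11 with the filter on dim probe sets and 7 with the replicate block. For homoharringtonine against bleomycin the count of 0 became 4 with the filter on dim probe sets and lay from 0 to 1 when 1 array was left out. For homoharringtonine against vehicle the count of 3 became 6 with that filter and 1 with the replicate block, and lay from 0 to 4 when 1 array was left out. The filter drops Slc5a12, Slc7a11 and Slc10a5 and leaves fewer probe sets to adjust over. Over the array the calls for these comparisons were 3218, 39 and 209. They became 2374, 0 and 144 in 2-group fits, 2175, 0 and 22 with the replicate block, 4131, 239 and 668 with the filter, and 3659, 16 and 385 with array weights. They lay from 1136 to 3396, 0 to 181 and 7 to 257 when 1 array was left out. Signs turned when 1 array was left out for Slc24a4 in homoharringtonine against bleomycin (-0.20 to 0.35), and for Slc2a1 (-0.16 to 0.0123) and Slc7a6 (-0.0026 to 0.15) in homoharringtonine against vehicle, none of them called. Averaging probe sets changed nothing, as each member has 1. Deviations of same-numbered arrays from their group means correlated from -0.137 to 0.0934. No reference was set for what paired mice would give, so whether the numbers pair the mice was not settled. The causes of these changes were not tested, and some of the alternatives also had fewer arrays or probe sets. No detection call was used, and Slc5a12, Slc7a11 and Slc10a5 had group means near or below the lower quartile of the arrays.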
